A study of Mus musculus with 8 samples.

Results

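The heat shock factor Hsf1 and 9 genes for cytosolic chaperones or their helpers (Hspa8, Hspa1a, Hspa1b, Hsph1, Dnajb1, Bag3, Hsp90aa1, Hspb1 and Hspb8) were followed in mouse retina. They were taken by symbol from a deposited table of 26824 genes, all 10 were found there, and all 10 passed the filter on low counts that kept 20167 genes. The series compares 3 libraries labelled wild type (WT 1 to WT 3) with 5 libraries labelled knockout for Kv8.2 (KO 2 to KO 6), the potassium channel subunit encoded by Kcnv2. Every library held total RNA from 2 pooled retinas of untreated mice aged 1 month, kept on a standard cycle of light and dark. Strain, sex and the knockout allele are not given in the sources used here. The question was whether transcripts of the cytosolic heat shock system differ in retinas of the mice labelled KO.

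Heat shock proteins are chaperones that hold, refold or pass on unfolded proteins. HSF1 is the transcription factor that raises their transcription when unfolded proteins accumulate: it is held inactive by chaperones, is released and forms trimers, and binds heat shock elements, which are inverted repeats of the letters GAA. In the retina, inducible HSP70 is known to rise after heat and bright light, and photoreceptors carry a high load of protein synthesis for their outer segments. In whole retina, fewer cells of a type and less RNA per cell cannot be told apart.

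The promoters show how far the inducible genes share sequence, which bears both on their regulation and on how their reads can be told apart. RefSeq promoter windows of GRCm38.p6, covering 250 bases before and 50 bases after a start site, were at hand for 7 of the 10 genes, in 9 windows. Both 8-letter forms of the heat shock element were searched, GAANNTTC and TTCNNGAA, each of which reads the same on both strands. Over all 32851 windows, 7.86% held GAANNTTC, 8.52% held TTCNNGAA, and 12.8% held either form within the 250 bases before the start. Stretches of 100 bases are shown for the 4 genes with a match before the start, with the matching letters in capitals.
Hspa1a, chr17:34972207-34972306, minus strand, 150 to 51 bases before the start: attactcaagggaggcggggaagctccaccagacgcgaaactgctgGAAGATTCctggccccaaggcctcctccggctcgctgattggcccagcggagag
Hspa1b, chr17:34959289-34959388, minus strand, 150 to 51 bases before the start: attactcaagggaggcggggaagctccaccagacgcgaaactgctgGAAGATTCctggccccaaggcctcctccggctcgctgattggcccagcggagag
Hspb1, chr5:135887769-135887868, plus strand, 150 to 51 bases before the start: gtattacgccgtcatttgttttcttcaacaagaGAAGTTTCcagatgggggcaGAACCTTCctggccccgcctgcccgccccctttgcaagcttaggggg
Hsph1, chr5:149636337-149636436, minus strand, 100 to 1 bases before the start: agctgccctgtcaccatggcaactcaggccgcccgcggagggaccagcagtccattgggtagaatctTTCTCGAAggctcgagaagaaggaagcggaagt

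The stretches of Hspa1a and Hspa1b were identical over all 100 bases, and their windows before the start differed at 3 of 250 positions. Hspb1 carried GAANNTTC at 2 places. Hsph1 had TTCNNGAA before the start and, from base 37 after it, the extended heat shock element with 3 repeats that opens with TTC, which overlaps both 8-letter forms and occurred in 0.32% of all windows. Hsph1 has 2 RefSeq starts, 149636336, which is used here, and 149636315. Both lie inside the gene as placed by GENCODE M21, which reaches chr5:149636376. The match before the RefSeq start lies inside that gene too. Bag3 and Hspb8 matched only after the start, at bases 43 and 3. Dnajb1 held neither form in its windows, which says only that these letters are not there. Hsf1, Hspa8 and Hsp90aa1 had no window in the table.

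The sharing extends to the transcripts. Of the 31-base words (31-mers) in the coding transcripts of Hspa1a, 63.8% also occur in Hspa1b, and 67.6% of those of Hspa1b occur in Hspa1a, so the division of reads between these neighbours on chromosome 17 is uncertain and their sum is given as well. Hspa8 shares 71.6% of its 31-mers, Hsp90aa1 54.0% and Hspb1 52.3%, mostly with Gm15459, Gm12346 and Hsp25-ps1. Gm15459 was listed at 0 to 14 counts a library and Gm12346 at 0 to 15 counts, and Hsp25-ps1 has no row in the table. Hsph1, Bag3 and Hspb8 share none, while Hsf1 and Dnajb1 share under 1%.

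The libraries held 17759146 to 25188870 counts. Kcnv2 was present in all of them, at 519 to 551 CPM in WT and 398 to 585 CPM in the libraries labelled KO, with a log2 fold change of -0.24 (SE 0.14, edgeR adjusted p = 0.275). It was called lower in KO 4 to KO 6 against WT (-0.38, edgeR adjusted p = 0.000116) and without KO 2 (-0.35, 0.0298), and stood at -0.04 in KO 2 and KO 3 against WT. Which part of Kcnv2 the allele removes is not given, so these counts do not check the genotype, and the libraries are called by their labels. KO 4, KO 5 and KO 6 stood apart: on the first principal component, with 39.5% of the variance, they scored 45.7 to 58.1 and the other 5 libraries -40.2 to -11.9. Mitochondrial genes took 3.03% to 3.70% of their counts, 5.23% and 6.52% in KO 3 and KO 2, and 7.09% to 7.92% in WT. The labels name no batch, and no WT library lies with KO 4 to KO 6, so within those libraries a batch and the label cannot be told apart. KO 3 carried lens transcripts, with 47900 CPM summed over 14 lens genes against at most 1380 CPM elsewhere, and 5 of the 14 were at 0 in some library. All 8 rod markers were present in every library and summed to 37200 to 54900 CPM (CPM, counts scaled to 1e+06 per library after TMM scaling, is the level used throughout).

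Over all 8 libraries, the HSP70-class chaperones Hspa8 and Hsph1 rose in the libraries labelled KO. They were the only 2 of the 10 genes called in edgeR's quasi-likelihood test at an adjusted p under 0.05, where 7.58% of all tested genes were called and 4.74% were called higher. The sign of the fold change was positive for 9 of the 10, with a median log2 fold change of 0.41 against 0.00 over all tested genes. Groups did not overlap for 4 genes on the higher side (Hspa8, Hsph1, Dnajb1 and Bag3), where 10.8% of all tested genes did so, and for Hspb8 on the lower side, where 10.1% did so. At an unadjusted p under 0.05 there were 6 genes, all higher, where 27.3% of all tested genes passed and 15.1% passed on the higher side, and DESeq2 called 6, with 18.2% of its genes called.

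**Figure D1:**
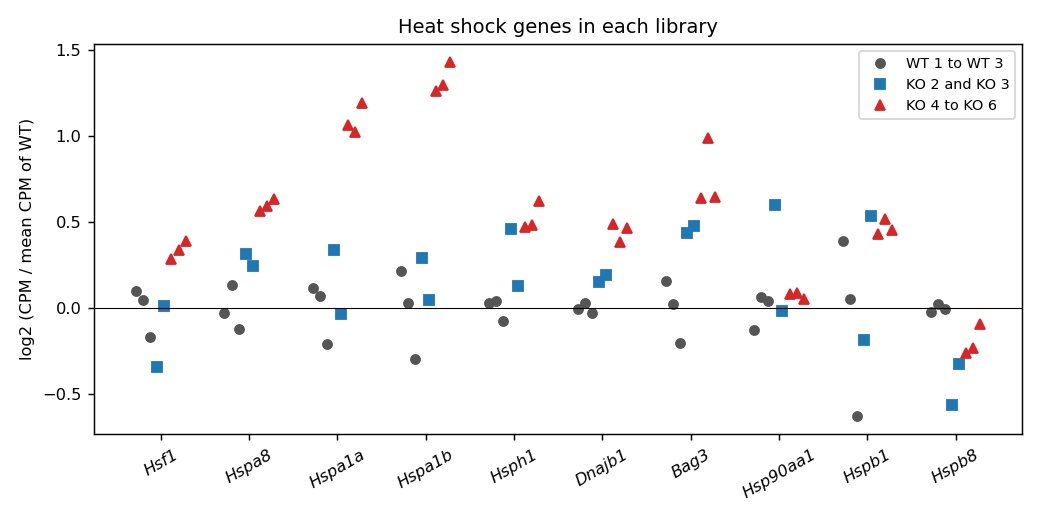
Level of each gene in each library as log2 of its CPM over the mean CPM of WT, with 1 point per library; grey circles are WT, blue squares KO 2 and KO 3, and red triangles KO 4 to KO 6. Hspa1a and Hspa1b stand above WT in KO 4 to KO 6, with log2 fold changes of 1.11 and 1.34 in edgeR. They lie nearer to WT in KO 2, which is above the WT range, and in KO 3, which is within it.

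Hsf1 (chr15:76477422-76501913, plus strand, GRCm38) was not called. WT 1, WT 2 and WT 3 held 30.5, 29.4 and 25.4 CPM of it, against 22.5, 28.7, 34.8, 36.0 and 37.3 CPM in KO 2 to KO 6. KO 2 was the lowest of all libraries and KO 4 to KO 6 were the highest, so the groups overlapped. The log2 fold change was 0.16 (SE 0.16, edgeR adjusted p = 0.541), and its sign turned with GC content correction (-0.07) and in KO 2 and KO 3 against WT (-0.15).

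Hspa8 (chr9:40800984-40810087, plus strand) encodes the constitutive cytosolic HSP70, which also strips clathrin from vesicles. Its level was 691, 774 and 648 CPM in WT, 874 and 835 CPM in KO 2 and KO 3, and 1040, 1060 and 1090 CPM in KO 4 to KO 6. Every library labelled KO lay above every WT library, and KO 4 to KO 6 lay above KO 2 and KO 3. The mean went from 704 ± 64.0 CPM (SD, n = 3) to 981 ± 117 CPM (SD, n = 5), a log2 fold change of 0.48 (SE 0.13, edgeR adjusted p = 0.0470). The call stood close to the threshold: it was lost with library size alone (edgeR adjusted p = 0.0721), with no filter (0.0600), and without any 1 of WT 1, WT 2, WT 3, KO 4, KO 5 or KO 6 (0.102 to 0.180), and it held without KO 2 (0.0270) or KO 3 (0.00834). The share of all tested genes called moved likewise. It was 0.636% to 0.955% without 1 WT library and 1.84% to 2.68% without KO 4, KO 5 or KO 6. Without KO 2 it was 13.9%, and without KO 3 it was 20%. These shares also stand beside the calls of other genes given below with 1 library left out.

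Hspa1a (chr17:34969190-34972156) and Hspa1b (chr17:34956436-34959238), both on the minus strand, encode the inducible HSP70, which many unstressed cells hold at a low level. Hspa1a stood at 44.5, 43.0 and 35.5 CPM in WT, 51.9 and 40.1 CPM in KO 2 and KO 3, and 85.8, 83.2 and 93.7 CPM in KO 4 to KO 6. Hspa1b stood at 36.1, 31.7 and 25.4 CPM in WT, 38.0 and 32.1 CPM in KO 2 and KO 3, and 74.5, 76.2 and 83.8 CPM in KO 4 to KO 6. For both genes KO 3 lay within the WT range, so the groups overlapped, KO 2 lay above it, and KO 4 to KO 6 lay above all other libraries.

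The log2 fold change over all libraries was 0.79 for Hspa1a (SE 0.25, edgeR adjusted p = 0.0780) and 0.97 for Hspa1b (SE 0.31, edgeR adjusted p = 0.0760), the highest fold changes of the 10 genes and neither called. Summed to 1 row, the pair went from 72.1 ± 10.1 CPM (SD, n = 3) to 132 ± 47.3 CPM (SD, n = 5), with a log2 fold change of 0.87 (SE 0.28, edgeR adjusted p = 0.0772). Hspa1b made up 41.7% to 44.8% of the pair in WT, KO 2 and KO 3 and 46.5% to 47.8% in KO 4 to KO 6. DESeq2 called both genes (adjusted p = 0.00881 for Hspa1a and 0.0498 for Hspa1b), and so did edgeR without KO 2 (0.0459 and 0.0392) and without KO 3 (0.00827 and 0.0120). With GC content correction over all libraries Hspa1a went to 0.52 (edgeR adjusted p = 0.111) and Hspa1b to 0.71 (0.0999). Robust estimation (0.117 and 0.137) and leaving out any 1 of WT 1, WT 2, WT 3, KO 4, KO 5 or KO 6 (0.138 to 0.232) also left both uncalled.

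**Figure D2:**
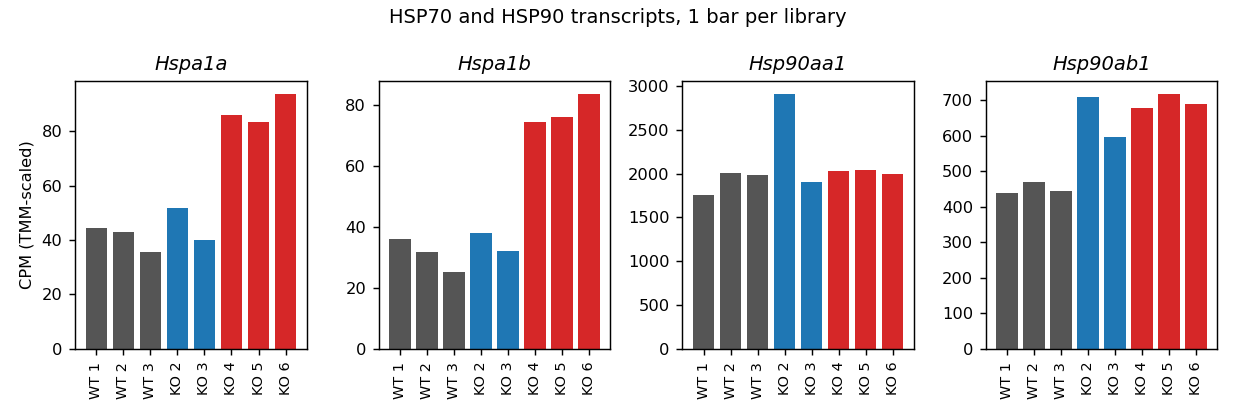
TMM-scaled CPM of Hspa1a, Hspa1b, Hsp90aa1 and Hsp90ab1, with 1 bar per library and axes that start at 0. The HSP70 pair is high in KO 4 to KO 6 (74.5 to 93.7 CPM), Hsp90aa1 is high in KO 2 alone (2910 CPM), and Hsp90ab1 is higher in all 5 KO libraries (595 to 718 CPM) than in WT (440 to 470 CPM).

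Hsph1, Dnajb1 and Bag3 help HSP70. Hsph1 (chr5:149614287-149636376, minus strand) encodes HSP110, which releases nucleotide from HSP70, and its level was 57.9, 58.3 and 53.8 CPM in WT and 77.7, 62.0, 78.5, 79.2 and 87.0 CPM in KO 2 to KO 6. All libraries labelled KO lay above WT, with KO 3 nearest to it. Hsph1 rose by a log2 fold change of 0.44 (SE 0.11, edgeR adjusted p = 0.0358), from 56.6 ± 2.49 CPM (SD, n = 3) to 76.9 ± 9.14 CPM (SD, n = 5). The call was lost without any 1 of WT 1, WT 2, WT 3, KO 4, KO 5 or KO 6 (edgeR adjusted p = 0.0676 to 0.136) and with library size alone (0.0622).

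Dnajb1 (chr8:83608193-83612653, plus strand) encodes an HSP40, a J-domain protein that hands clients to HSP70. It was at 55.3, 56.5 and 54.3 CPM in WT and 61.6, 63.4, 77.8, 72.2 and 76.5 CPM in KO 2 to KO 6. The groups did not overlap, and KO 2 and KO 3 sat between WT and KO 4 to KO 6. Its log2 fold change was 0.34 (SE 0.09, edgeR adjusted p = 0.0520), just outside the threshold.

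Bag3 (chr7:128523616-128546981, plus strand) encodes a co-chaperone that links HSP70 to small heat shock proteins and to selective autophagy. Its level was low, at 4.22, 3.86 and 3.29 CPM in WT and 5.12, 5.28, 5.91, 7.51 and 5.92 CPM in KO 2 to KO 6, from 74 to 147 counts a library. Again no library labelled KO fell into the WT range, and KO 5 was the highest. The log2 fold change was 0.65 (SE 0.18, edgeR adjusted p = 0.0513). Dnajb1 and Bag3 were called with DESeq2's size factors in edgeR (adjusted p = 0.0475 and 0.0493) and by DESeq2 (0.0122 and 0.0127). They were also called without KO 2 (edgeR adjusted p = 0.0222 and 0.0356), without KO 3 (0.0208 and 0.0254) and with robust estimation (0.0488 and 0.0476). They were uncalled with library size alone (edgeR adjusted p = 0.117 and 0.0760), with GC content correction (0.0714 and 0.0956) and without any 1 of WT 1, WT 2, WT 3, KO 4, KO 5 or KO 6 (0.0934 to 0.179).

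Hsp90aa1 (chr12:110690605-110702728, minus strand), the stress-responsive cytosolic HSP90, had the highest level of the 10 genes for its length, at 584 ± 42.7 CPM for each 1000 bases of transcript in WT (SD, n = 3), with Hspa8 next at 294 ± 26.7. The remaining 8 genes stood between 1.48 (Bag3) and 18.5 (Dnajb1) on that scale. In CPM, Hsp90aa1 was at 1760, 2010 and 1980 in WT and 2910, 1900, 2030, 2040 and 1990 in KO 2 to KO 6. KO 2 alone was high, and the other 4 libraries labelled KO lay between 1900 and 2040 CPM, inside the WT range or just above it. The log2 fold change was 0.18 (SE 0.15, edgeR adjusted p = 0.451), and 0.06 without KO 2.

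The small heat shock proteins of Hspb1 (chr5:135887919-135889563, plus strand) and Hspb8 (chr5:116408491-116422864, minus strand) hold unfolded clients without ATP, and Hspb8 works together with Bag3. Hspb1 was at 5.76, 4.56 and 2.84 CPM in WT and 3.86, 6.37, 5.91, 6.29 and 6.01 CPM in KO 2 to KO 6, with a log2 fold change of 0.38 (SE 0.25, edgeR adjusted p = 0.345) that went to 0.14 without WT 3 and 0.62 without WT 1, uncalled in both (edgeR adjusted p = 0.765 and 0.248). The groups overlapped: KO 2 lay inside the WT range, which ran from 2.84 to 5.76 CPM, and the other 4 libraries labelled KO lay just above it. Hspb8 was at 7.13, 7.38 and 7.24 CPM in WT and 4.91, 5.80, 6.06, 6.18 and 6.79 CPM in KO 2 to KO 6. It was the only 1 of the 10 with every library labelled KO below WT, and it was not called (log2 fold change -0.29, SE 0.14, edgeR adjusted p = 0.220).

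The libraries labelled KO differed among themselves, so KO 2 with KO 3 and KO 4 with KO 5 and KO 6 were each set against the same WT libraries. This split was drawn from these same data and from no label, so its calls only describe these libraries. KO 2 and KO 3 were not alike. In chi-square per degree of freedom they stood at 110 to each other, and KO 2 and KO 4 at 44. Pairs within KO 4 to KO 6 stood at 5.85 to 6.92. In KO 2 and KO 3 against WT, edgeR called 0 of the 10 genes, where 0.891% of tested genes were called, and 2 (Hsph1 and Hspb8) had an unadjusted p under 0.05, as did 19% of tested genes. The log2 fold changes were 0.28 for Hspa8, 0.30 for Hsph1, 0.17 for Hspa1a and 0.18 for Hspa1b, with SE from 0.11 to 0.16. In KO 4 to KO 6 against WT, 7 of the 10 were called, all higher, where 42.8% of tested genes were called and 22.3% were called higher. Hspa1b (1.34, SE 0.11) and Hspa1a (1.11, SE 0.09) led there, followed by Bag3 (0.78, SE 0.17), Hspa8 (0.61, SE 0.07), Hsph1 (0.54, SE 0.07), Dnajb1 (0.46, SE 0.06) and Hsf1 (0.35, SE 0.08). Hsp90aa1, Hspb1 and Hspb8 were not called in that comparison (edgeR adjusted p = 0.322, 0.0897 and 0.294).

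**Figure D3:**
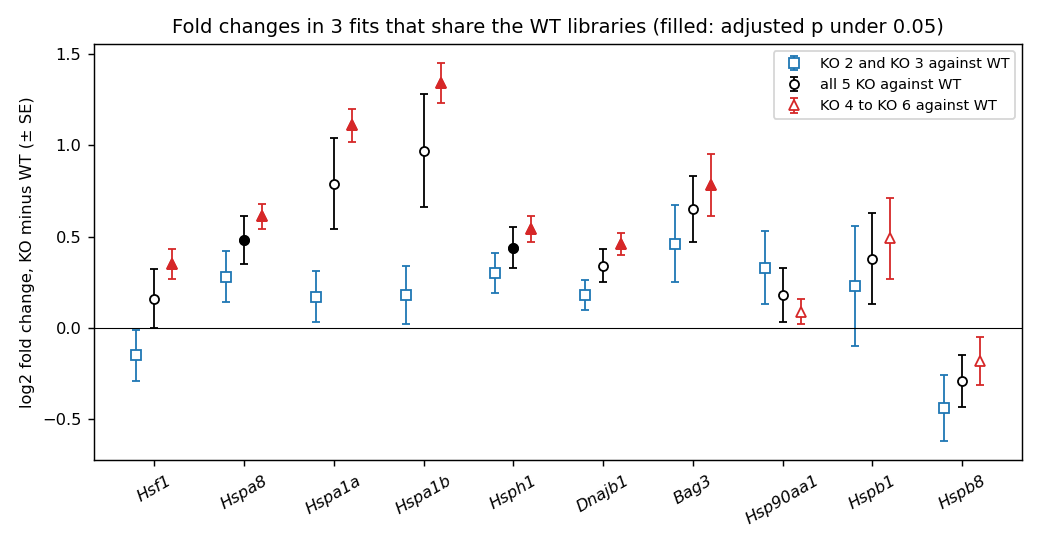
Log2 fold change of KO over WT with its standard error for each gene, from edgeR on KO 2 and KO 3 (blue squares), all 5 libraries labelled KO (black circles) and KO 4 to KO 6 (red triangles), each against the same 3 WT libraries; filled symbols passed an adjusted p under 0.05. The HSP70 pair reaches 1.11 and 1.34 in KO 4 to KO 6 and 0.17 and 0.18 in KO 2 and KO 3.

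Fold changes also moved with the GC content of transcripts. Among tested genes with a GC content of 55% to 65% the median log2 fold change over all libraries was 0.23 and 10.6% were called higher, against -0.22 and 0.791% below 45%. The upper window holds 5 of the 10 genes (Hspb1 61.7%, Hspa1a 58.9%, Hspa1b 58.1%, Hsf1 57.8%, Bag3 56.1%), and Hsp90aa1 is the only 1 below 45%, at 43.7%. A correction of each library for GC content was chosen after seeing the data.

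With that correction, KO 4 to KO 6 against WT gave log2 fold changes of 1.00 for Hspa1b (SE 0.10) and 0.74 for Hspa1a (SE 0.08), both called (edgeR adjusted p = 3.12e-05 and 6.11e-05). Hspa8 (0.50), Hsph1 (0.59), Dnajb1 (0.29) and Bag3 (0.48) were also called higher. Hsf1 went from 0.35 to 0.01 and lost its call (edgeR adjusted p = 0.928), and Hspb1 went from 0.49 to 0.09. Hsp90aa1 went from 0.09 to 0.33 and was called higher (edgeR adjusted p = 0.00188), and Hspb8 was called lower at -0.37 (edgeR adjusted p = 0.0446). In all, 7 were called higher and 1 lower, where 16.3% and 15.4% of the tested genes were. Over all 8 libraries the correction left Hspa8 (0.40, edgeR adjusted p = 0.0432) and Hsph1 (0.49, edgeR adjusted p = 0.0262) called, where 7.46% of tested genes were.

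**Figure D4:**
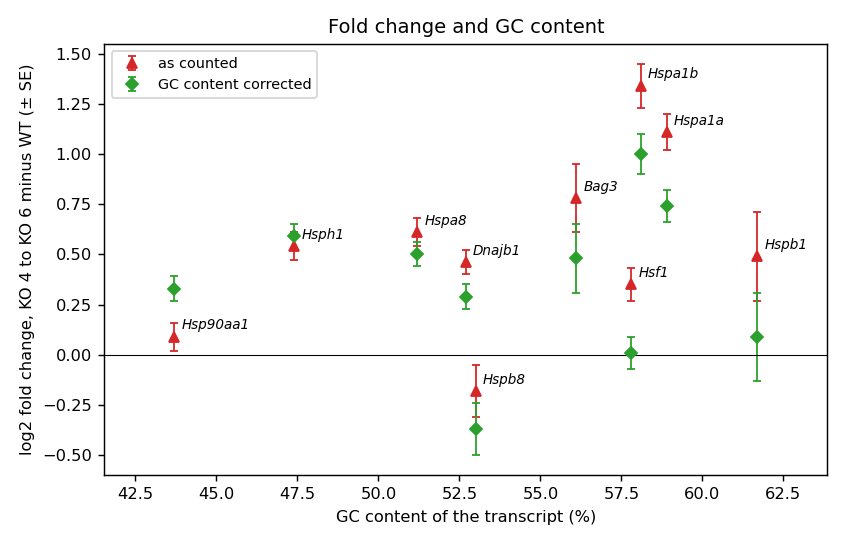
Log2 fold change of KO 4 to KO 6 over WT with its standard error against the GC content of each gene's transcript in percent, as counted (red triangles) and after correction for GC content (green diamonds). Hsf1 goes from 0.35 to 0.01 and Hsp90aa1 goes from 0.09 to 0.33, while Hspa1b goes from 1.34 to 1.00.

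Other transcripts moved with the label or the library. The 7 immediate early genes (Fos, Fosb, Junb, Egr1, Atf3, Ier2 and Dusp1), which answer to handling and to activity within minutes, summed to 67.7 to 77.1 CPM in WT and 195 to 268 CPM in the libraries labelled KO, and 6 of 7 were called higher, against 4.74% of all tested genes. The sum was 258 and 234 CPM in KO 2 and KO 3, and Egr1 held most of it there, at 161 and 128 CPM. Junb, Atf3, Ier2 and Dusp1 were higher in each of KO 4 to KO 6 than in KO 2 and KO 3. So were 8 of the 10 heat shock genes (all but Hsp90aa1 and Hspb1) and 23.9% of all tested genes. The 8 include Hspb8, which lay below WT in every library labelled KO, so that KO 4 to KO 6 were nearer to WT. Fos, Fosb and Egr1 were not higher in each of KO 4 to KO 6. The 9 retinal stress genes summed to 126 to 141 CPM in WT and 310 to 549 CPM in the libraries labelled KO. All 9 were called higher, where 4.74% of all tested genes were. Of these, Edn2, Stat3, Cebpd, Bcl3 and Serpina3n were higher in each of KO 4 to KO 6 than in KO 2 and KO 3, as with Edn2 at 28.9 to 45.6 against 5.04 and 6.51 CPM. The 6 endothelial markers summed to 146 to 154 CPM in WT and 196 to 296 CPM in the libraries labelled KO, and the separation rested on Kdr, the only 1 called: without it the sums were 30.5 to 36.1 and 32.6 to 45.7 CPM, with KO 3 inside the WT range. Muller glia markers summed to 4490 to 4680 and 4760 to 6860 CPM, with 2 of 8 called, and microglia markers to 28.2 to 30.8 and 34.8 to 48.3 CPM, with 2 of 7 called. The glial and microglial calls were all higher, where 4.74% of all tested genes were called higher. By two-sided exact permutation each of these 5 sums reached p = 0.0357, the smallest value that 3 against 5 libraries allow, and 0.0786 after adjustment over 11 lists. The lists were chosen with earlier results of these data known, so these calls and p-values do not test a rise. The 7 cone markers summed to 1120 to 1370 CPM in WT and 933 to 1410 CPM in the libraries labelled KO (exact p = 0.821), and without Gnb3, at 246 to 298 and 305 to 613 CPM, to 872 to 1080 and 628 to 841 CPM, with every library labelled KO below WT. Among them Gnat2 (log2 fold change -0.47, edgeR adjusted p = 0.0318) and Pde6h (-0.74, 0.00478) fell and Pde6c (0.51, 0.0251) rose. Of the 8 rod markers Sag was called, higher (0.87, edgeR adjusted p = 0.0169), at 2100 to 2770 CPM in WT and 3190 to 5080 CPM in the libraries labelled KO. The marker genes given here with values were chosen after their values were seen. The part of these lists in the levels of the heat shock genes was not tested, nor was that of the mitochondrial share.

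Beyond these 10 genes, 64 other chaperone and heat-inducible genes in 9 families were listed, of which 63 were in the table and 59 were tested. Over all libraries edgeR called 5 higher and 2 lower, where 4.74% and 2.84% of all tested genes were called, with a median log2 fold change of 0.11. With library size alone the balance turned, with 2 called higher and 4 lower, where 2.81% and 3.9% of all tested genes were. In KO 4 to KO 6 against WT, 24 were called higher and 16 lower, where 22.3% and 20.5% of all tested genes were, and in KO 2 and KO 3 against WT only Hspb6 was called, where 0.891% of tested genes were.

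Hspb6, the small heat shock protein HSP20, rose most of those called, with 54.0 ± 3.92 CPM (SD, n = 3) in WT and 102 ± 19.5 CPM (SD, n = 5) in the libraries labelled KO. Its log2 fold change was 0.92 (SE 0.15, edgeR adjusted p = 0.00927). In KO 2 and KO 3 against WT it was 0.62 (edgeR adjusted p = 0.0309), and in KO 4 to KO 6 against WT it was 0.83 with GC content correction. Its call was lost without any 1 of WT 1, WT 2 or WT 3 (edgeR adjusted p = 0.0577 to 0.0622) and held without any 1 library labelled KO. Cryab, named after its values were seen, was at 4590 CPM in KO 3, the library with lens transcripts, and at 19.1 to 129 CPM elsewhere. Hspb3, Hspb7 and Hspb9 did not pass the filter and Hspb11 was not in the table.

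Hsp90ab1 encodes the constitutive HSP90, and its difference from Hsp90aa1 was not tested. It was at 440, 470 and 444 CPM in WT and 708, 595, 679, 718 and 689 CPM in KO 2 to KO 6, so that no KO library came near WT. It rose by a log2 fold change of 0.59 (SE 0.10, edgeR adjusted p = 0.0132), with 0.53 in KO 2 and KO 3 (edgeR adjusted p = 0.106) and 0.63 in KO 4 to KO 6. With GC content correction over all libraries it was 0.52 (SE 0.08), beside 0.35 (SE 0.13) for Hsp90aa1. The call of Hsp90ab1, too, was lost without any 1 WT library (edgeR adjusted p = 0.0663 to 0.0970) and held without any 1 library labelled KO. Of its co-chaperones, Chordc1 was the only 1 of 9 called, lower by a log2 fold change of -0.36 (SE 0.09, edgeR adjusted p = 0.0373), and it turned to 0.11 after GC content correction.

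In the HSP70 system, Hspa2 (log2 fold change 0.59, edgeR adjusted p = 0.0431), the J-domain protein Dnajb2 (0.51, 0.0293) and Bag6 (0.66, 0.0427), which binds exposed hydrophobic segments, rose, each the only 1 called of 8 in its family. With GC content correction Hspa2 lost its call (0.45, edgeR adjusted p = 0.0729), and Dnajb2 (0.29) and Bag6 (0.40) were smaller and still called. With library size alone all 3 calls were lost (edgeR adjusted p = 0.0636, 0.0522 and 0.0640). Hspe1, the mitochondrial HSP10, fell by 0.37 on the log2 scale (edgeR adjusted p = 0.0459). Of the 8 subunits of TRiC, the chaperonin that folds actin and tubulin, none was called by edgeR over all libraries. There, 2 had an unadjusted p under 0.05, where 27.3% of all tested genes did. In KO 4 to KO 6 against WT, 3 were called higher, where 22.3% of all tested genes were. The log2 fold changes over all libraries ran from 0.01 for Cct6a to 0.29 for Cct7. DESeq2 called Cct7 (adjusted p = 0.0165), and it went to 0.14 with GC content correction (edgeR adjusted p = 0.253). Hsf4, a heat shock factor of the lens, was at 9.27 CPM in KO 3, 2.44 to 2.96 CPM in WT and 2.73 to 5.72 CPM in the other libraries labelled KO, with a log2 fold change of 1.04 (edgeR adjusted p = 0.0782). In KO 4 to KO 6 against WT, where the lens sum was 2.28 to 10.8 CPM, it was called higher (0.96, edgeR adjusted p = 0.00107, and 0.57, 0.0289 with GC content correction). The calls of Hspa2, Dnajb2, Bag6, Chordc1 and Hspe1 were each lost without any 1 of WT 1, WT 2, WT 3, KO 4, KO 5 or KO 6 (edgeR adjusted p = 0.0573 to 0.220) and held without KO 2 or KO 3.

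**Figure D5:**
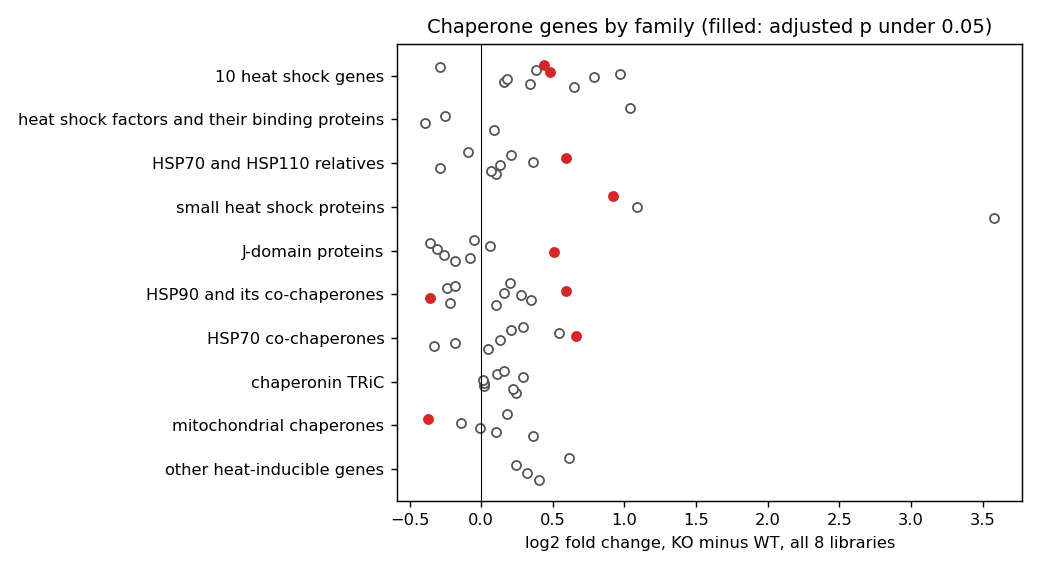
Log2 fold change of KO over WT over all 8 libraries for each tested chaperone gene, with 1 row per family and filled points for an adjusted p under 0.05. The point at 3.58 is Cryab, which is at 4590 CPM in KO 3, the library with lens transcripts.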

How the data were processed

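RNA-seq of mouse retina was available as 1 table of gene counts for 3 WT and 5 KO libraries. The deposited values are estimated counts per gene, given as whole numbers, with 17759146 to 25188870 per library. The submitters' processing notes name Trim Galore, Salmon 1.10.2, DESeq2 and GRCm38, without their settings. Per the series text, the authors tested 3 KO libraries and do not name the 2 left out, so all 5 were used. The counts were tested here with edgeR 4.0.16 in R 4.3.3 (TMM scaling, filterByExpr, quasi-likelihood test, Benjamini-Hochberg adjustment over all 20167 tested genes, called at an adjusted p under 0.05). Levels are CPM. The limit that a count of 0 allows, 3 counts, is 0.130 to 0.164 CPM and covers counting error only. Each library pooled 2 retinas of individual mice, so p-values measure the spread between these libraries.

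The members and lists were chosen with earlier results of these data known. Of the other chaperone genes, those called over all libraries were named, and per list without a call the 1 with the greatest absolute log2 fold change; 1 gene so named is not reported here. Alternatives were DESeq2 1.42.0, limma 3.58.1 voom with quality weights, other scalings and filters, robust estimation, leaving out libraries, every choice of 3 KO libraries, KO 2 and KO 3 or KO 4 to KO 6 alone, a replicate block and, added after seeing the data, a GC content correction by lowess (span 0.3) and a crossed block. GC content, lengths and shared 31-mers came from GENCODE M21, matched for 22121 of 26824 genes, and promoters from RefSeq on GRCm38.p6. On simulated data with 200 genes changed 2-fold in this comparison, 98 were recovered and 8 others were called among 19689 tested.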

Additional observations from a re-analysis of the deposited data

Results flagged for a closer look

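The spread among the 5 libraries labelled KO was scanned for single libraries far from the rest, by the gap to the nearest library over the whole range, with a limit of 0.71. Of 21 values scanned, 4 passed. Chance gives about 1.05 for independent values and libraries drawn alike. That does not hold here, as KO 4 to KO 6 stood apart, so 4 cannot be set against 1.05. Hsp90aa1 was high in KO 2 (2910 CPM against 1900 to 2040 CPM, gap 0.861 of the range). Hspb1 was low in KO 2 (3.86 CPM against 5.91 to 6.37 CPM, gap 0.817). The summed lens genes were high in KO 3 (47900 CPM against 2.28 to 199 CPM, gap 0.996). The summed blood genes were high in KO 2 (59.2 CPM against 18.2 to 24.2 CPM, gap 0.854), within the range of WT (30.9 to 67.4 CPM).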

How the results depend on the processing

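Of the 10 heat shock genes, 2 were called over all libraries; the count was 4 with DESeq2's size factors (7.48% of all tested genes called), 0 with library size alone (6.71%; 6 of the 10 at an unadjusted p under 0.05, as 27.3% of all), 1 with no filter (4.08%), 4 with robust estimation (8.55%), 6 in DESeq2 (18.2%) and 7 in voom (40.9%). It was 0 to 7 when 1 library or a pair of KO libraries was left out (0.601% to 42.8%). In KO 2 and KO 3 against WT it was 0 (0.891%), and 0 also with GC content correction (0.92%). In KO 4 to KO 6 against WT it was 7 (42.8%), and 8 with GC content correction (31.8%). Of the 59 other chaperone genes tested over all libraries, 7 were called. The number was 4 with no filter, 15 in DESeq2, 37 in voom and 0 to 40 with libraries left out. It was 1 in KO 2 and KO 3 (1 with GC content correction) and 40 in KO 4 to KO 6 (29 with it). The shares of all tested genes given above stand beside these numbers too. Over all genes, 1529 were called, against 3066 in DESeq2, 8248 in voom, 118 to 8416 with libraries left out, 180 in KO 2 and KO 3 (166 with GC content correction) and 8416 in KO 4 to KO 6 (5612 with it). Library size alone called 566 higher and 787 lower, against 956 and 573 with TMM. The cause of these differences was not tested.

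Same-numbered libraries did not deviate together (r = -0.19), and the labels do not say that a number marks shared animals. With the replicate block on WT 2, WT 3, KO 2 and KO 3, 0 heat shock genes, 0 other chaperone genes and 52 of all genes were called, against 0, 0 and 14 without the block; none of the 10 had an unadjusted p under 0.05 in either. The crossed block called 0, 3 and 527. Hsf1 changed sign to -0.15 in KO 2 and KO 3, -0.20 there with GC content correction, -0.07 with the correction over all libraries, -0.11 with the block, -0.10 without it and -0.11 with the crossed block. Chordc1 changed sign to 0.11 with GC content correction and 0.21 with it in KO 4 to KO 6. The correction was not run for Hspa1a and Hspa1b summed. The fewest counts were those of Hspb1, at 64 to 134 a library, and Bag3, at 74 to 147; how far depth limits them was not tested.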
